A study of Mus musculus with 6 samples.

Results

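The genes that sense DNA damage and repair double-strand breaks were followed in AE9a leukemia cells by bulk RNA-seq, in 45 members of this machinery out of the 53618 named genes of the deposited table. They were chosen by symbol, as the damage kinases, homologous recombination, end joining and Fanconi genes with their partners. All 45 were in the table, and all 45 passed the filter of a normalised read count of 10 or more in at least 3 libraries, as did 12298 named genes in all. The cells were GFP+Lin-c-Kit+ splenocytes, taken by sorting from recipients of AE9a leukemia cells of the genotype Usp18+/f UBCER-Cre. AE9a is a truncated AML1-ETO fusion that causes acute myeloid leukemia in mice, and GFP marks the cells that carry it. After recipients became sick they were injected with oil (labelled Usp18+/f, 3 libraries) or tamoxifen (labelled Usp18+/Δ, 3 libraries), and the cells were taken 3 days after the first injection. Per the study's methods the AE9a virus was introduced into fetal liver cells, the recipients were 8 to 12 weeks old, and the Cre recombinase is driven by the ubiquitin C promoter in all tissues. Both groups carried the fusion, the floxed allele and the Cre, and the oil group received no tamoxifen, so the effects of tamoxifen, of active Cre and of the loss of one Usp18 allele cannot be told apart here.

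A double-strand break is bound by the MRE11, RAD50 and NBS1 proteins, which activate the kinase ATM, while single-stranded DNA at stalled forks or cut ends activates ATR. These kinases phosphorylate CHK1, CHK2 and the histone H2AX, and the break is then joined directly by the KU and DNA-PK proteins or copied from the sister chromatid by BRCA1, BRCA2 and their partners. The Fanconi proteins unhook DNA crosslinks and pass the resulting breaks to homologous recombination. Much of this machinery acts in S and G2 phase, and several of its genes are transcribed most in dividing cells.

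The libraries held 19172471 to 23785143 recovered reads, and the lowest count of any member in any library was 12 reads. The library labelled tamoxifen 1 stood apart from the rest. Over the genes tested, the median of its correlations was 0.913, against 0.981 to 0.990 for the other 5 libraries, and mitochondrial genes took 0.00923% of its reads, against 1.01% to 1.56%. The main comparisons were therefore made with all 6 libraries and again without tamoxifen 1. Usp18, the targeted gene, was higher in the libraries labelled tamoxifen, although that label names the loss of an allele. Its normalised read counts were 217, 214 and 176 in the oil libraries and 477, 329 and 284 in the libraries labelled tamoxifen. In limma its adjusted p was 0.666 with all 6 libraries and 0.181 without tamoxifen 1. Reads summed over the gene do not show whether the floxed allele was lost, and this was not tested. The direction of every difference below is that of these labels. Of the gate, Kit was at 4687 to 10976. The progenitor genes Runx1, Gata2 and Cd34 were at 9996 to 12791, 8872 to 13302 and 200.7 to 1052, whereas Mpo, a defining gene of myeloid blasts, was at 0 to 20.2 and Ptprc, which encodes CD45, was at 0.898 to 8.08. The erythroid gene Hba-a1 was at 19942 to 32731 in oil and 25700 to 57514 in tamoxifen, with the groups overlapping.

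No member passed an adjusted p of 0.05 in limma with all 6 libraries, where the share of all genes tested that passed was 0%, and the lowest adjusted p of a member was 0.666. At an unadjusted p under 0.05, 0 members were higher and 0 lower in limma, against 3.23% and 1.24% of the genes tested. On the recovered reads edgeR and DESeq2 also gave 0 members at either threshold. At the unadjusted threshold edgeR had 3.98% of the genes it tested higher and 0.87% lower, and DESeq2 had 3% and 0.652%. At the adjusted threshold edgeR called 0% and DESeq2 0.293% of the genes each tested. Without tamoxifen 1 the count of members at an adjusted p under 0.05 was again 0, against 0.333% of the genes tested. At an unadjusted p under 0.05 there was then 1 higher member, Brca2, against 6.04% of the genes tested, and 3 lower members, Chek2, H2afx and Fancl, against 6.06%. The lowest adjusted p of a member was then 0.365.

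The differences were small as well as uncalled. The median log2 fold change of the 45 members, tamoxifen minus oil, was -0.10 with all 6 libraries and -0.09 without tamoxifen 1, beside medians of -0.02 and -0.02 over all genes tested. It was -0.17 without tamoxifen 2, -0.064 without oil 3 and 0.027 after correction for GC content. With all 6 libraries 26 members lay within 0.25 of zero on the log2 scale and 43 within 0.5. Without tamoxifen 1 these counts were 40 and 45, and the 95% confidence interval of every one of the 45 lay within a log2 change of 1 in either direction, as it did for 33 with all 6 libraries. The median half-width of the interval was 0.59 with all 6 libraries and 0.28 without tamoxifen 1. For a member with the median half-width, a smaller difference leaves zero inside the interval.

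**Figure D1:**
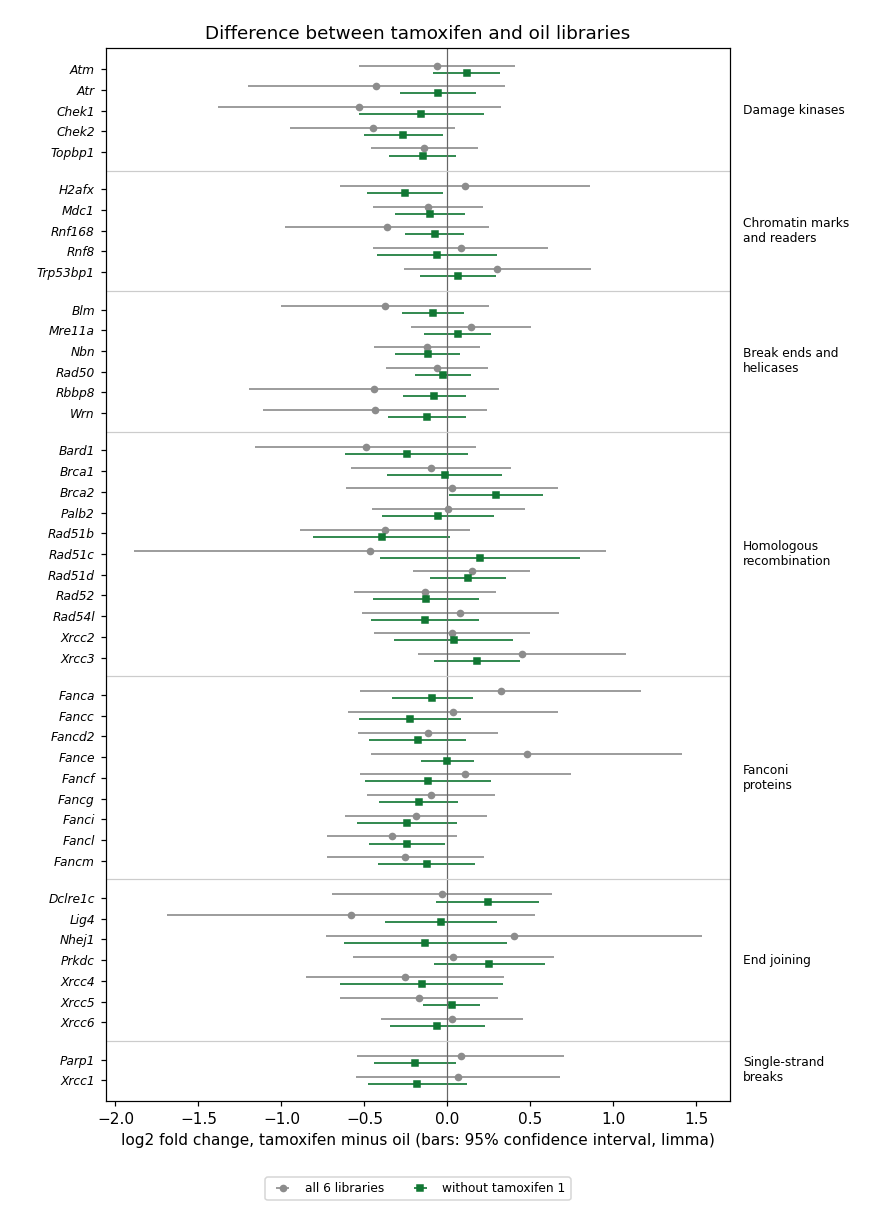
Log2 fold change of each member between libraries labelled tamoxifen and oil, with 95% confidence intervals from limma, for all 6 libraries (grey circles) and without tamoxifen 1 (green squares), grouped by role. The intervals shorten without tamoxifen 1, and those of Chek2, H2afx, Fancl and Brca2 then leave out zero, before adjustment over genes.

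The groups overlapped for most members. With all 6 libraries Xrcc3 was the single member with every tamoxifen library above every oil library, against 7.86% of the genes tested, and Chek2, Rbbp8, Rad51b and Fancl were the 4 with every tamoxifen library below, against 9.69%. Without tamoxifen 1 the counts were 2 higher (Xrcc3 and Dclre1c), against 12.6%, and 7 lower (the same 4 with H2afx, Fancg and Fancc), against 16.8%. These counts moved when other libraries were left out. When oil 1 was left out, 14 of the 45 members were lower without overlap, against 14.0% of the genes tested. When tamoxifen 2 was left out, 16 of the 45 were, against 21.2%.

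**Figure D2:**
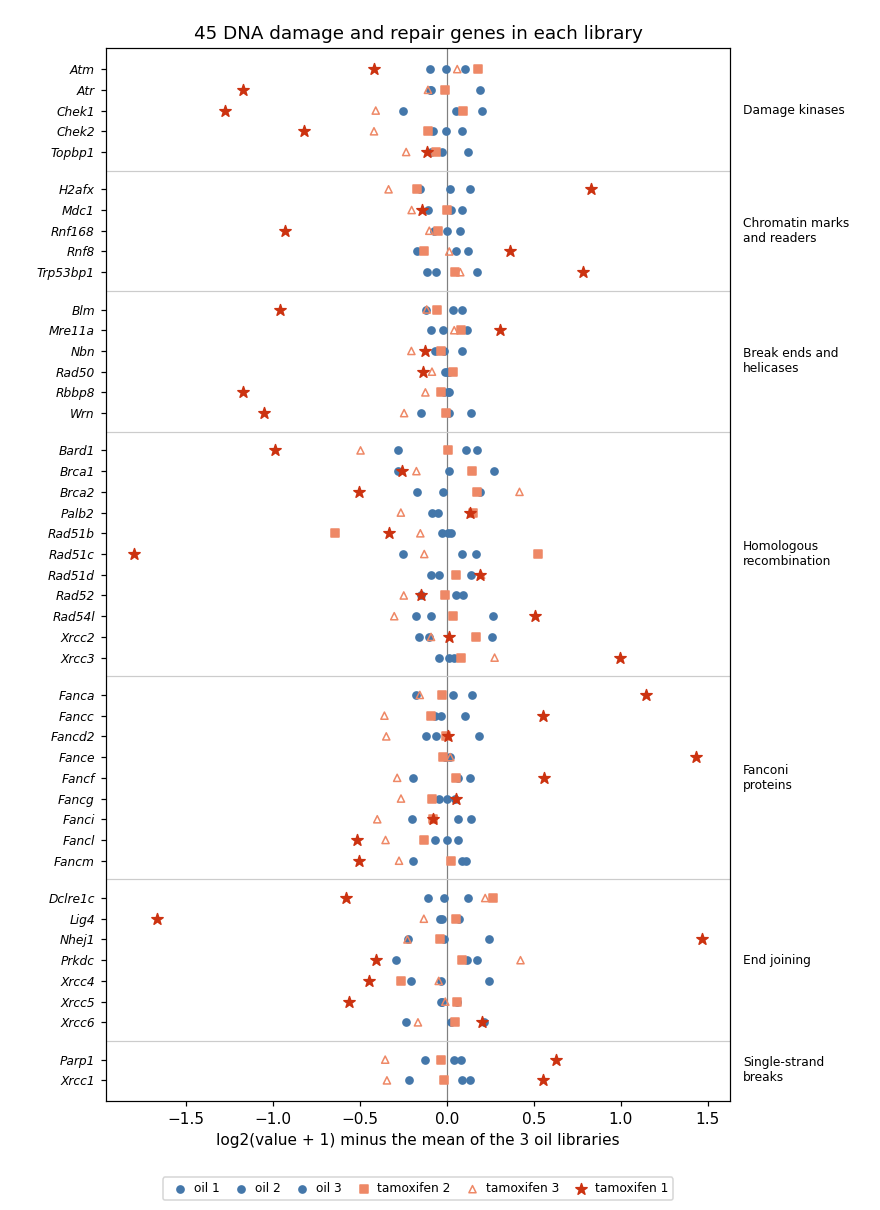
Level of each member in each library, as log2(value + 1) minus the mean of the 3 oil libraries, grouped by role. Tamoxifen 1 (stars) lies outside the range of the other 5 libraries for most members, on either side, while tamoxifen 2 and 3 lie among or near the oil libraries.

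Levels per kb of exon spanned a wide range within the module. In the oil libraries Parp1, which encodes the poly(ADP-ribose) polymerase that binds nicked DNA, led with a mean of 2674 normalised reads per kb. H2afx, the gene of histone H2AX, followed at 1319, and Wrn, which encodes a RecQ helicase, at 881. Nbn and Fance came next at 799 and 751. At the other end stood Rad51c at 12.8, the ubiquitin ligase gene Rnf8 at 14.0, the ligase partner Xrcc4 at 18.9 and the nuclease gene Dclre1c at 22.5. Spread between the oil libraries was a median of 8.77% of the mean (coefficient of variation), close to the 8.08% of all genes tested. Neighbours in the order were often closer than this spread, as with Atm and Xrcc3 at 139 and 138 per kb.

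**Figure D3:**
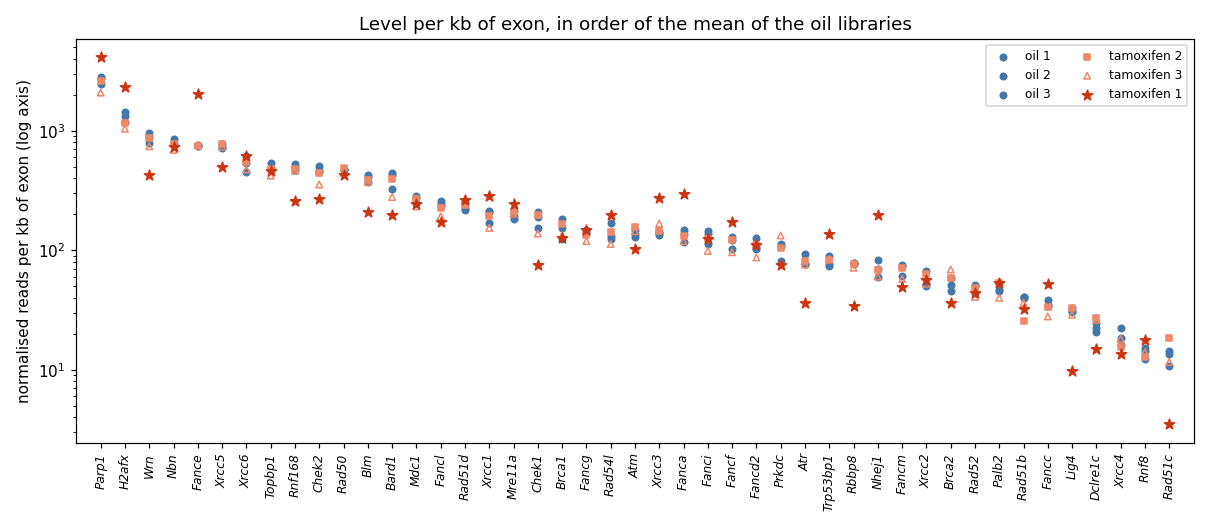
Normalised reads per kb of exon for each member in each library, on a log axis, ordered by the mean of the oil libraries. Parp1 is at the top and Rad51c at the bottom of the order, and tamoxifen 1 (stars) departs from the other 5 libraries along the whole range.

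The kinases that signal damage were taken with the ATR activator gene Topbp1. Their median log2 fold change was -0.43 with all 6 libraries, -0.15 without tamoxifen 1 and 0.0098 after correction for GC content. Atm (chr9:53439149-53536740, minus strand), the kinase of double-strand breaks, had normalised read counts of 1337, 1537 and 1428 in oil and 1068, 1617 and 1491 in tamoxifen. Tamoxifen 1 was the lowest of the 6 and the other 2 tamoxifen libraries lay within or just above the oil range. Atr (chr9:95857597-95951781, plus strand), the kinase of single-stranded DNA, was at 1808, 2205 and 1816 in oil and at 859, 1923 and 1793 in tamoxifen. Tamoxifen 1 was far below the other libraries, tamoxifen 3 just below the oil range and tamoxifen 2 inside it, and the log2 fold change went from -0.43 (95% confidence interval -1.20 to 0.34) to -0.06 (-0.29 to 0.17) without it.

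Chek1 (chr9:36708482-36727065, minus strand) encodes the kinase that ATR activates to hold cells in S and G2 phase. It was at 712, 880 and 978 in oil and at 350, 906 and 639 in tamoxifen. Tamoxifen 1 was lowest, tamoxifen 3 lay below the oil range and tamoxifen 2 inside it. Its log2 fold change was -0.53 (95% confidence interval -1.38 to 0.32) with all 6 libraries, -0.16 (-0.54 to 0.22) without tamoxifen 1, -0.84 without tamoxifen 2 and -0.090 after correction for GC content. Chek2 (chr5:110839979-110874145, plus strand) encodes the kinase downstream of ATM, and it shared the lowest adjusted p of the members without tamoxifen 1 with H2afx. Its values were 1349, 1419 and 1514 in oil and 808, 1319 and 1066 in tamoxifen. All 3 tamoxifen libraries were below all 3 oil libraries, tamoxifen 2 by a narrow margin. The log2 fold change was -0.45 ± 0.21 (SE) with all 6 libraries (limma, adjusted p = 0.666) and -0.27 ± 0.11 without tamoxifen 1 (adjusted p = 0.365). Over all alternatives its adjusted p ran from 0.0476, when limma weighted the libraries by quality, to 0.861. Topbp1 was at 5236 to 6061 in oil and 4736 to 5329 in tamoxifen, and it was the kinase-group gene in which tamoxifen 1, at 5142, lay inside the range of the other 5 libraries.

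Among the genes that mark and read the chromatin around a break, H2afx changed sign with the libraries used. H2afx (chr9:44334694-44336077, plus strand) was at 1636, 1844 and 1996 in oil and at 3230, 1614 and 1441 in tamoxifen. Tamoxifen 1 was far above all other libraries, and tamoxifen 2 and 3 were below the oil range. The log2 fold change was 0.11 ± 0.32 (SE) with all 6 libraries and -0.25 ± 0.10 without tamoxifen 1 (limma, adjusted p = 0.365). Trp53bp1 (chr2:121193281-121271407, minus strand), which encodes 53BP1, the reader that protects ends from being cut back, was at 1084, 1278 and 1047 in oil and 1944, 1170 and 1194 in tamoxifen. The excess was that of tamoxifen 1, and without it the log2 fold change was 0.06 (95% confidence interval -0.17 to 0.29). Mdc1, whose product binds phosphorylated H2AX, was at 1842 to 2109 in oil and 1727 to 1985 in tamoxifen. The ubiquitin ligase genes Rnf8 and Rnf168 had log2 fold changes of 0.08 and -0.36 with all 6 libraries and -0.06 and -0.08 without tamoxifen 1.

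The genes of the break-binding complex differed little between the groups. Rad50 was at 2516 to 2556 in oil, a coefficient of variation of 0.808%, and at 2307, 2598 and 2392 in tamoxifen. Nbn was at 1925 to 2147 in oil and 1754 to 1976 in tamoxifen, and Mre11a at 1092 to 1258 in oil and 1198 to 1435 in tamoxifen. Without tamoxifen 1 the log2 fold changes of these 3 were -0.03, -0.12 and 0.06. Rbbp8, which encodes the CtIP protein that starts the cutting back of ends, was also steady in oil, at 963, 982 and 978. In tamoxifen it was at 432, 953 and 894, all below the oil libraries, with tamoxifen 2 and 3 short of the oil range by little, and the log2 fold change without tamoxifen 1 was -0.08 (95% confidence interval -0.27 to 0.11). The RecQ helicase genes Blm and Wrn were at 1817 and 3214 in tamoxifen 1, against lowest values of 3258 and 5625 in the other 5 libraries.

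The 11 homologous recombination genes held both the highest and the lowest log2 fold change of the module without tamoxifen 1, for Brca2 and Rad51b, while their median was 0.01 with all 6 libraries, -0.07 to 0.07 when 1 library was left out and 0.11 after correction for GC content. Brca1 (chr11:101488764-101551955, minus strand), whose product promotes the cutting back of ends, was at 1060, 1300 and 1552 in oil and 1077, 1424 and 1140 in tamoxifen. The tamoxifen values lay inside the oil range throughout. Bard1 (chr1:71027498-71103146, minus strand), the partner of Brca1, was at 1833, 2405 and 2508 in oil and 1122, 2240 and 1579 in tamoxifen. Tamoxifen 1 and 3 were below all oil libraries and tamoxifen 2 was among them. The log2 fold change was -0.49 (95% confidence interval -1.16 to 0.17) with all 6 libraries, -0.24 (-0.61 to 0.13) without tamoxifen 1 and -0.74 without tamoxifen 2.

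Brca2 (chr5:150522630-150570329, plus strand) encodes a central mediator of homologous recombination. It was at 627, 695 and 806 in oil and 496, 794 and 942 in tamoxifen. Tamoxifen 1 was the lowest library and tamoxifen 3 the highest of the 6, and tamoxifen 2 fell within the oil range. The log2 fold change was 0.03 ± 0.27 (SE) with all 6 libraries and 0.29 ± 0.13 without tamoxifen 1 (limma, adjusted p = 0.3996). It was 0.38 after correction for GC content and 0.36 with library weights (limma, adjusted p = 0.0824). Palb2, which joins BRCA1 to BRCA2, was at 333 to 388 in oil and 294 to 392 in tamoxifen.

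The genes Rad51b, Rad51c, Rad51d, Xrcc2 and Xrcc3, whose products form complexes that act in homologous recombination, did not share a direction. Rad51b (chr12:79297282-79814690, plus strand) was at 153, 149 and 154 in oil and 120, 97.0 and 136 in tamoxifen. All tamoxifen libraries were below the oil libraries, which lay within a coefficient of variation of 1.90%, and the log2 fold change was -0.38 ± 0.21 (SE) with all 6 libraries and -0.40 ± 0.18 without tamoxifen 1 (limma, adjusted p = 0.432). Its lowest value came from tamoxifen 2, and without that library the log2 fold change was -0.24, while after correction for GC content it was -0.20. Xrcc3 (chr12:111803192-111813873, minus strand) was at 367, 382 and 390 in oil and 758, 402 and 459 in tamoxifen. All tamoxifen libraries were above the oil libraries, and the log2 fold change was 0.45 ± 0.26 with all 6 and 0.18 ± 0.11 without tamoxifen 1 (adjusted p = 0.567). Rad51d (chr11:82876434-82890614, minus strand) was at 949, 808 and 834 in oil and 983, 893 and 988 in tamoxifen, and tamoxifen 2 lay inside the oil range. Rad51c, the member with the fewest reads, was at 46.7 to 62.7 in oil and 15.3, 80.8 and 50.9 in tamoxifen. Xrcc2, Rad52 and Rad54l had log2 fold changes of 0.04, -0.13 and -0.14 without tamoxifen 1.

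Of the 9 Fanconi genes, 9 had a lower mean in tamoxifen without tamoxifen 1, with a median log2 fold change of -0.17, as had 34 of the 45 members and 6791 of the 12298 genes tested in the same fit, while with all 6 libraries 4 were higher and 5 lower with a median of -0.10. The median was 0.00061 without tamoxifen 3, -0.024 without oil 3 and -0.018 after correction for GC content. Fance counted as lower by -0.00068 only. The 9 share their libraries and are not 9 separate observations, and tamoxifen 3 was the lower library: the group's median difference from oil was -0.29 in tamoxifen 3 and -0.03 in tamoxifen 2. Fancl (chr11:26386135-26471876, plus strand), the ubiquitin ligase of the core complex, was at 790, 866 and 830 in oil and 579, 757 and 648 in tamoxifen. All 3 tamoxifen libraries were below the oil range, and the log2 fold change was -0.33 ± 0.16 (SE) with all 6 libraries and -0.24 ± 0.10 without tamoxifen 1 (limma, adjusted p = 0.393). After correction for GC content it was 0.10, so its direction turned with that setting. Fancd2 and Fanci, the genes of the proteins that the Fancl product ubiquitinates, had log2 fold changes of -0.18 and -0.24 without tamoxifen 1.

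Fance (chr17:28313519-28326572, plus strand), a core complex gene, was the most even Fanconi gene outside tamoxifen 1. It was at 2423, 2386 and 2382 in oil and 6473, 2363 and 2429 in tamoxifen. The value in tamoxifen 1 was 2.70 times the mean of the other 5 libraries. The log2 fold change of 0.48 (95% confidence interval -0.46 to 1.41) with all 6 libraries became -0.00068 (-0.16 to 0.16) without it. Fanca was likewise at 2571 in tamoxifen 1 and at 1028 to 1287 elsewhere.

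The median log2 fold change of the end joining genes had no steady sign. It was -0.03 with all 6 libraries, ran from -0.18 (without tamoxifen 2) to 0.028 (without oil 2) when 1 library was left out, with -0.16 without tamoxifen 3 and -0.11 without oil 1, and was 0.12 after correction for GC content. Prkdc (chr16:15637866-15842235, plus strand), the catalytic subunit of DNA-PK, was at 1069, 1477 and 1419 in oil and 988, 1387 and 1754 in tamoxifen. Tamoxifen 1 was the lowest library and tamoxifen 3 the highest, as for Brca2. The log2 fold change of Prkdc was 0.03 (95% confidence interval -0.57 to 0.64) with all 6 libraries. It was 0.25 (-0.08 to 0.59) without tamoxifen 1 and 0.34 after correction for GC content. The KU genes Xrcc6 and Xrcc5 had log2 fold changes of -0.06 and 0.03 without tamoxifen 1, with intervals of -0.35 to 0.23 and -0.15 to 0.20. Lig4, the ligase of this pathway, was at 160, 173 and 162 in oil and 51.1, 171 and 150 in tamoxifen. Its partner genes Xrcc4 and Nhej1 were at 57.5 and 220 in tamoxifen 1, against 65.7 to 93.6 and 67.3 to 93.6 in the other 5 libraries, so that genes of one complex moved in opposite directions in that library. Dclre1c, which encodes the Artemis nuclease, was at 194 to 228 in oil and at 139, 252 and 244 in tamoxifen, above the oil libraries in tamoxifen 2 and 3 only.

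The single-strand break genes Parp1 and Xrcc1 were both high in tamoxifen 1 and low in tamoxifen 3. Parp1 (chr1:180568924-180601254, plus strand) was at 12960, 14539 and 14959 in oil and 21833, 13818 and 11045 in tamoxifen. Xrcc1, the scaffold that PARP1 recruits, was at 980, 1211 and 1250 in oil and 1673, 1127 and 898 in tamoxifen. Tamoxifen 2 lay inside the oil range for both genes. Their log2 fold changes turned from 0.08 and 0.06 with all 6 libraries to -0.19 (95% confidence interval -0.44 to 0.05) and -0.18 (-0.48 to 0.12) without tamoxifen 1.

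The tamoxifen libraries 2 and 3 were not alike over the module. The median difference of the members from the oil mean was -0.0031 in tamoxifen 2 and -0.17 in tamoxifen 3 on the log2 scale, beside -0.0032 and -0.04 over all genes tested. A list of 20 S phase and mitosis genes had medians of 0.03 in tamoxifen 2 and -0.26 in tamoxifen 3. Without tamoxifen 1, 6 of these 20 were lower, against 6.06% of the genes tested, and 1 higher, against 6.04%, at an unadjusted p under 0.05, and 0 passed adjustment, with the lowest adjusted p, 0.192, for Ccna2. Its part in the members' values was not tested. The 6 macrophage markers summed to 74.3 to 174 in oil and 202 to 282 in tamoxifen, and the 5 neutrophil markers to 4.64 to 7.72 and 22.7 to 43.5, with Ly6g at 0 in all libraries. Of the B cell markers Cd79b was at 0.929 to 2.89 in oil and 5.05 to 16.6 in tamoxifen, Cd79a at 2.79 to 6.75 and 1.01 to 8.18, Pax5 at most at 0.929 and Ms4a1 at 0 in all libraries. The 5 T cell markers summed to 0.898 to 2.89 in oil and 1.82 to 7.07 in tamoxifen, with Cd3e and Cd8a at 0. The 3 NK cell markers summed to 58.9 to 159 in oil and 193 to 661 in tamoxifen, of which Ncr1 and Klrb1c were at 0, and the 3 megakaryocyte markers to 159 to 194 and 184 to 624, with Gp1bb at 0. Their part was not tested either, and in bulk RNA fewer cells of a type and less RNA per cell cannot be told apart.

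The departure of tamoxifen 1 was ordered by the base composition of the transcripts. It lay above the other 5 libraries for 14 members, against 41.1% of the genes tested, below them for 19, against 41.6%, and inside their range for 12. Over the 45 members, the Spearman correlation of transcript GC content with the difference of tamoxifen 1 from the mean of the other 5 was 0.865. Over the 12159 genes tested with a known GC content it was 0.686. These points share their libraries and are given as a description. Over the members the same correlation was -0.20 for tamoxifen 2 and -0.21 for tamoxifen 3 against oil. Over the 12159 genes it was -0.0051 and 0.090. In the 10 members below 43% GC, all 10 were lower in tamoxifen 1 than in the mean of the others, with a median log2 difference of -0.84. The 22 members from 43% to 50% GC had a median of -0.11, and of the 13 members at 50% GC or above 12 were higher, with a median of 0.64. The cause was not tested.

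**Figure D4:**
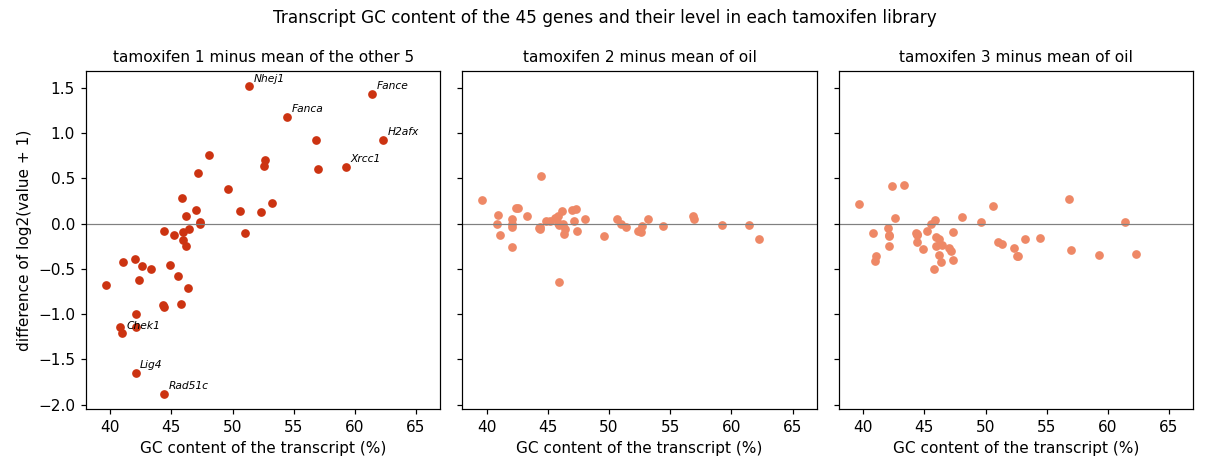
Transcript GC content of each member against its log2 difference in tamoxifen 1 from the mean of the other 5 libraries (left), and in tamoxifen 2 (middle) and tamoxifen 3 (right) from the oil mean. Tamoxifen 1 rises with GC content, with Lig4 and Chek1 among the low members and Fance among the high ones. The Spearman correlations in the other panels are -0.20 and -0.21.

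To show the base composition itself, a stretch of 90 coding bases is given for the 2 members lowest and the 2 highest in tamoxifen 1 relative to the other 5, among those with group means of at least 100. The stretch is the one closest in GC content to its whole coding sequence (GENCODE vM21, GRCm38, read 5′ to 3′ on the gene's strand), with G and C in capitals.
Lig4: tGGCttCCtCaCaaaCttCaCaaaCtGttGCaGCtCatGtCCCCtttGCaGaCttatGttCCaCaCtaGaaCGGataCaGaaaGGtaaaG
Chek1: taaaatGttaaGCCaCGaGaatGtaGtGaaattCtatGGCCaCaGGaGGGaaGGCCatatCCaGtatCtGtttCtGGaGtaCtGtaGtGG
Fanca: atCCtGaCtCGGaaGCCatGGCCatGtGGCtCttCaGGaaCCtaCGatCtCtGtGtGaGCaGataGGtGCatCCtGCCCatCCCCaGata
Fance: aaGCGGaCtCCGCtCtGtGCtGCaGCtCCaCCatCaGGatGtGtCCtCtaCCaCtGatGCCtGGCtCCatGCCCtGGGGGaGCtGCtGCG
The Lig4 stretch lies in exon 2 of 2 (chr8:9973688-9973777, minus strand) and the Chek1 stretch in exon 3 of 13 (chr9:36723820-36723909, minus strand). The Fanca stretch lies in exon 7 of 43 (chr8:123308526-123308615, minus strand) and the Fance stretch in exon 2 of 10 (chr17:28315683-28315772, plus strand). In this order the stretches hold 40, 39, 49 and 57 bases that are G or C. The GC content of the whole coding sequences was 44.5%, 43.1%, 54.9% and 62.9%. Tamoxifen 1 was at 0.314, 0.425, 2.26 and 2.70 times the mean of the other 5 libraries.

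Promoters were searched for the interferon-stimulated response element, because USP18 restrains type I interferon signaling, and, also on both strands, for the E2F and CHR elements of cell cycle genes. RefSeq windows from 250 bases before to 50 after the start (GRCm38.p6) matched 36 of the 45 members. The element was searched as GAAA, any pair of bases and GAAA again, on either strand, and was found in 4 of these 36 (11.1%), against 3.99% of all 27025 genes with a window. The E2F letters TTTGGCGC or TTTCGCGC were found in 2 (5.56%, against 0.929%), Rad51c and Topbp1, and the CHR letters TTTGAA in 3 (8.33%, against 20.2%). The 4 matches to the interferon element are shown, each in a window of 30 bases upstream of the RefSeq start, on the gene's strand and with the match in capitals.
Chek1: ccccgtgccaTTTCCATTTCattcggactc
Brca2: cgaagatacaGAAAAAGAAAgtataaacaa
Xrcc1: TTTCTCTTTCgtgtgcctgcctcaccttca
Fancg: ccgggtttctTTTCAGTTTCccgcggaacc
The matches begin 200, 202, 250 and 58 bases before the start, in this order. The windows lie at chr9:36726839-36726868 on the minus strand, chr5:150522409-150522438 and chr7:24546449-24546478 on the plus strand, and chr4:43010340-43010369 on the minus strand. Their genes did not share a direction without tamoxifen 1, with log2 fold changes of -0.16 for Chek1, 0.29 for Brca2, -0.18 for Xrcc1 and -0.17 for Fancg. A match of letters is a description and shows no binding.

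Other genes of the same pathways gave a like picture. Of a list of 65, 63 were in the table and were tested, among them the 3 replication protein A genes and the 9-1-1 clamp genes. Their median log2 fold change was -0.03 with all 6 libraries and -0.06 without tamoxifen 1. In limma 0 of the 63 passed an adjusted p of 0.05 in either fit. At an unadjusted p under 0.05 there were 0 with all 6 libraries, against 3.23% of the genes tested higher and 1.24% lower, and without tamoxifen 1 there were 1 higher, against 6.04%, and 1 lower, against 6.06%. The higher one was Fan1, which encodes a nuclease of crosslink repair, at 226 to 233 in oil and 412, 279 and 291 in tamoxifen, with an adjusted p of 0.362 without tamoxifen 1. The lower one was Rad1, a clamp gene, at 868 to 963 in oil and 859, 812 and 743 in tamoxifen.

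The repair genes stood beside a different pattern in the targets of p53, the transcription factor that ATM and CHK2 activate. All 11 targets tested had a higher mean in tamoxifen in both fits. Of the 12298 genes tested, 5958 were higher with all 6 libraries and 5507 without tamoxifen 1. The median log2 fold change of the targets was 0.98 with all 6 libraries and 0.76 without tamoxifen 1. In limma 0 of the 11 passed an adjusted p of 0.05 with all 6 libraries, against 0% of the genes tested. Without tamoxifen 1, 5 passed, against 0.333% of the genes tested, namely Cdkn1a, Zmat3, Sesn2, Trp53inp1 and Eda2r. Cdkn1a, the p21 inhibitor of cyclin-dependent kinases, was at 603, 487 and 614 in oil and 2796, 1754 and 1898 in tamoxifen. It rose by a log2 fold change of 1.69 without tamoxifen 1 (adjusted p = 0.00118), while the kinase genes Atm and Chek2 of the same route had 0.12 and -0.27. These are transcript levels, and the activity of the kinase proteins was not measured here. The study measured DNA damage inducible genes by qRT-PCR and phosphorylated H2AX by western blot in sorted cells of both groups, and reported a higher irradiation response. The difference between the lists was not tested.

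Some members share exon bases with other annotated genes, and the sources do not state whether the counting used strand. In GENCODE vM21, 22 of the 45 share at least 1 exonic base with another gene and 9 share 10% or more of their exonic bases. The overlap was 16.4% for Fancc with Gm16133, 16.0% for Fanci with Polg, 15.4% for Rad54l with Lrrc41, 15.0% for Trp53bp1 with Tubgcp4 and 15.0% for Fancf with Gas2. It was 13.7% for Fancl with Vrk2, 13.2% for Rnf8 with Gm28043, 10.5% for Fanca with Zfp276 and 10.2% for H2afx with Gm44335. How many reads of these genes came from the overlap was not tested, and their values are uncertain.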

How the data were processed

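RNA was extracted with Trizol, and libraries were prepared with the kit that the labels name for DNA. The submitters' processing notes name STAR, DESeq2 and the mm10 build, and other settings are not given in the sources used here. The table the authors deposited holds a normalised signal: the read count of each gene divided by 1 size factor per library. All values above 0 (100%, within 0.1 of a read) were whole multiples of the value of 1 read, which recovered whole reads. Rows without a gene name took 0.0400% to 0.0614% of reads and were left out.

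limma (version 3.58.1, R 4.3.3, mean-variance trend) was run on log2(value + 1) for the 12298 named genes whose value reached 10 in 3 or more libraries, two-sided, adjusted by Benjamini-Hochberg over all of them. Fold changes are on that scale, which understates changes of low genes. edgeR (4.0.16) and DESeq2 (1.42.0) on recovered reads were alternatives. The other alternatives were TMM scaling, pseudocounts of 0.5 and 5, no filter, the replicate number as a block, a loess correction for GC content (span 0.3), library weights and each library left out. edgeR, DESeq2 and the GC correction without tamoxifen 1 were added after seeing the data. Methods were tested on simulated data (200 of 12298 genes changed, by a log2 change of 2 in either direction, dispersion 0.05). limma, edgeR and DESeq2 recovered 97.5%, 97% and 94% of the changed genes, with 16, 12 and 26 false calls. The simulation held no outlying library and no GC trend. It does not show how well changes as small as those of the members would be found.

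Coordinates, exon lengths and GC content (longest transcript) are those of GENCODE vM21 (GRCm38). Members with values in every library were Atm, Atr, Chek1, Chek2, Brca1, Brca2, Prkdc, Parp1, Trp53bp1 and H2afx and the 4 with the smallest p in each direction; the choice of others given so followed a look at their values. The members and all lists were chosen with earlier results of these data known. The values of some genes of the other lists are not reported here. Per the study, each library came from a separate mouse.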

Additional observations from a re-analysis of the deposited data

How the results depend on the processing

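The count of members past an adjusted p of 0.05 was 0 in every setting except library weights. There it was 1 of 45 (Chek2, against 6.36% of the genes tested). With these weights 3 of the 45 members were higher (against 11% of the genes tested) at an unadjusted p under 0.05. At the same threshold 12 of the 45 were lower (against 12.4%). Of 304 values of the 16 named members over the alternatives, 268 kept direction and side of the threshold, 35 reversed and 1, Chek2 with library weights, came to pass the threshold. The GC correction moved the members' median log2 fold change to 0.027 and the number higher without overlap to 2 (against 7.31% of the genes tested), and it reversed Atm to 0.28, Atr to 0.020, Brca1 to 0.066, Parp1 to -0.030, H2afx to -0.30 and Fancl to 0.10. With the replicate block the count of members was 0 and, together with the GC correction, these 7 fold change values were the same. Deviations from the group means in same-numbered libraries had correlations of -0.02, 0.06 and -0.15. For libraries with different numbers they ran from -0.085 to 0.13. These values show no pairing by number, but with so few libraries they cannot exclude one. Library weights reversed Atm to 0.059, Parp1 to -0.28 and H2afx to -0.29. Without tamoxifen 1, edgeR gave 1 higher and 2 lower members at an unadjusted p under 0.05 (against 7.35% and 4.69% of the genes tested) and reversed Atm to 0.14, Parp1 to -0.17 and H2afx to -0.23, DESeq2 gave 1 and 2 (3.19% and 2.15%) and 0.13, -0.18 and -0.24, and the GC correction gave 3 lower members (7.61%) and 0.11, -0.22 and -0.31, with Fance at -0.053. Leaving out each library in turn gave 0 to 1 of the 45 members higher (against 1.60% to 6.04% of the genes tested) at an unadjusted p under 0.05. At that threshold 0 to 3 of the 45 were lower (0.228% to 6.06%). Without overlap, 1 to 3 of the 45 were higher (10.8% to 15.8%) and 4 to 16 lower (13.1% to 21.2%). The log2 fold change then ran from -0.18 to 0.12 for Atm, -0.24 to 0.038 for Brca1, -0.17 to 0.29 for Brca2, -0.00068 to 0.73 for Fance, -0.25 to 0.33 for H2afx, -0.19 to 0.30 for Parp1 and -0.16 to 0.25 for Prkdc. For the named members that kept their direction it ran from -0.64 to -0.059 for Atr, -0.84 to -0.16 for Chek1, -0.62 to -0.27 for Chek2, -0.74 to -0.24 for Bard1, -0.49 to -0.24 for Rad51b, -0.43 to -0.24 for Fancl, 0.062 to 0.43 for Trp53bp1, 0.18 to 0.63 for Xrcc3 and 0.10 to 0.22 for Rad51d. The cause of these reversals was not tested.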
